A study of Mus musculus with 2 samples.

Results

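Open chromatin was examined at the genes of the enzymes that write DNA methylation de novo and of those that remove it by oxidation. 7 of the 22367 protein-coding genes of GENCODE vM1 were taken by name: Dnmt3a, Dnmt3b, Dnmt3l, Tet1, Tet2, Tet3 and Tdg. Described here are the ATAC-seq peaks in each of these genes with 20 kb on either side, 57 of the 71914 peaks listed for WT and 39 of the 61640 listed for Uhrf1 KO. The series is a pair of ATAC-seq libraries, an assay in which Tn5 transposase inserts sequencing adapters into accessible DNA. WT is the undifferentiated mouse embryonic stem cell (ESC) line E14 and Uhrf1 KO is an E14 ESC line without Uhrf1, grown in the same serum and leukemia inhibitory factor medium on gelatin or on plates coated with mouse embryonic fibroblasts, with no further treatment. Each genotype is 1 library of 1 line, so no replicate error exists, the genotypes could not be tested against each other, and loss of Uhrf1 and the history of the line cannot be told apart.

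Dnmt3a and Dnmt3b add methyl groups to unmethylated CpG dinucleotides, and Dnmt3l, which has no catalytic activity of its own, stimulates both. The Tet dioxygenases oxidize methylcytosine to hydroxymethylcytosine, formylcytosine and carboxylcytosine, and Tdg is the DNA glycosylase that excises the last 2 of these for base excision repair. Uhrf1 recruits the maintenance enzyme Dnmt1 to hemimethylated DNA after replication, a step apart from the de novo and oxidative ones. Dnmt3b, Dnmt3l, Tet1 and Tet2 are known for high expression in ESCs, and mouse ESCs use an internal Dnmt3a promoter for a short isoform.

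The listed peaks carry a position, a name and a score of 1, and all but 1 have the same width, so a list says where a peak was called but not how strong it was. A peak absent from a list is therefore not shown to be closed, and the depth behind a peak is unknown. A peak was called shared when a peak of the other list lay within a gap of at most 100 bp, and unpartnered otherwise. Over both lists, 32.1% of WT and 24.6% of KO peaks were unpartnered, and the KO list held 0.857 times as many peaks as the WT list. Of 8 ESC marker genes, 7 were found under their names, and all 7 had a peak within 2 kb of a start in both lists. Of 8 fibroblast markers, 3 (Col1a1, Col1a2 and Prrx1) had a start peak in both lists, Dcn had such a peak in WT alone, and Col3a1, Lum, Twist2 and Postn had none. The Uhrf1 gene had start peaks in both lists, so the lists do not check the genotype labels.

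The sequences shown lie under listed peaks at starts of the 7 genes, not in every case the closest peak, together with an upstream group at Tet3 and an intronic site at Tet2, on which the lists are set side by side further on. They were read from NCBIM37, the assembly of mm9, over the listed peaks without bases of annotated exons, and are written 5′ to 3′ on the strand of the gene with every CpG, the substrate of these enzymes, in capitals. For the writers, they are the stretch under the only peaks listed at the Dnmt3b start in WT, shared peaks at the upstream and the internal start of Dnmt3a, and the internal Dnmt3l start.
Dnmt3b start (chr2:153475013-153475164, plus strand): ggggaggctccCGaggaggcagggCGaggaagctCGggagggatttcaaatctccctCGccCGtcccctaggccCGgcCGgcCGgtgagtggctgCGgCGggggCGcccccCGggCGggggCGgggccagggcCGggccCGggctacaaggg
Dnmt3a upstream start (chr12:3806357-3806479, plus strand): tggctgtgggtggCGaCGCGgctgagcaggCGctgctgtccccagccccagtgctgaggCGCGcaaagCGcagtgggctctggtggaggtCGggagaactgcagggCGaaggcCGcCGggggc
Dnmt3a internal start (chr12:3891477-3891633, plus strand): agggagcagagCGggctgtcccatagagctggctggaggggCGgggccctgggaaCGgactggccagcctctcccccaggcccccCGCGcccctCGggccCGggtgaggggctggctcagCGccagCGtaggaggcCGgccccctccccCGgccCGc
Dnmt3l internal start (chr10:77512500-77512586, plus strand): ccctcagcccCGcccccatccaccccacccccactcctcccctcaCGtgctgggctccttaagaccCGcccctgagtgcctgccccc

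For the Tet genes and Tdg, they are the starts, the intronic Tet2 site and the stretch of the Tet3 upstream group that was listed in both libraries.
Tet1 RefSeq start (chr10:62350114-62350218, minus strand): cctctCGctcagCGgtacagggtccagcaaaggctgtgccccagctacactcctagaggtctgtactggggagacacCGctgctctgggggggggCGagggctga
Tet2 start (chr3:133207465-133207583, minus strand): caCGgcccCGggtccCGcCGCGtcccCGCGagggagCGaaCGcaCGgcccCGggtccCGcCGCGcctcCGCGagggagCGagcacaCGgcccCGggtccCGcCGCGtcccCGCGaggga
Tet2 intronic site (chr3:133197151-133197294, minus strand): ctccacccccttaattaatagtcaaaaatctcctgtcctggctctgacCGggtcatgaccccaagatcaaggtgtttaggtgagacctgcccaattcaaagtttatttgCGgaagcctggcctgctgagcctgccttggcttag
Tet3 start (chr6:83391673-83391747, minus strand): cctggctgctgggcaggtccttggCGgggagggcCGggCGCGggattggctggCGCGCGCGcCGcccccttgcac
Tet3 upstream group (chr6:83406580-83406693, minus strand): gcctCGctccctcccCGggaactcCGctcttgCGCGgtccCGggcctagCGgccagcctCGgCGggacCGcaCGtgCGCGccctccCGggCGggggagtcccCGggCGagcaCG
Tdg start (chr10:82092454-82092557, plus strand): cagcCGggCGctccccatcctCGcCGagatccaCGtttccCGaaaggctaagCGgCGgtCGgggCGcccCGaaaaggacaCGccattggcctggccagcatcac

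These stretches differed in CpG content. The Tet2 start held 24 CpGs in 119 bp and a GC content of 84%. The Dnmt3b start held 16 CpGs in 152 bp (78.9% GC) and the Tet3 upstream group 18 in 114 bp (80.7% GC). The intronic Tet2 site held 2 CpGs in 144 bp (50.7% GC) and the internal Dnmt3l start 3 in 87 bp. CpG-rich and CpG-poor sequence thus both lay under shared peaks.

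All 7 genes had more WT than KO peaks in their windows. The same order held for 55.9% of the 19456 genes with a peak in their window, and the opposite order for 24.1%. The order depended on the window. When only peaks closest to the start of the gene itself were counted, WT had more at 5 genes, the numbers were equal at Tdg, and Dnmt3l had more in KO. Within the gene bodies alone, WT had more at Dnmt3a and Tet1 only, Dnmt3b had 0 WT peaks and 1 KO peak, and the other 4 were equal. In all, 57 peaks were listed in WT (43.2 to 73.9, 95% exact Poisson interval) against 39 in KO (27.7 to 53.3), a ratio of 0.684. KO peaks made up 40.6% of the 96 (95% exact binomial interval 30.7 to 51.1), and the share over the whole lists, 46.2%, lay within that interval. The intervals reflect counting error alone, and peaks side by side are not independent of each other.

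The 3 Dnmt3 genes held 19 WT and 11 KO peaks, a ratio of 0.579, and the 3 Tet genes held 33 and 24, a ratio of 0.727. For comparison, genes with at least 5 WT peaks had a median KO to WT ratio of 0.75, with quartiles of 0.571 and 1, over 9599 genes. These are ratios of single genes, so they give no place to the summed ratios of 3 genes. Tet1 had the most WT peaks, with 13 (Poisson interval 6.92 to 22.2) against 8 in KO (3.45 to 15.8). Tet2 followed with 11 (5.49 to 19.7) against 10 (4.8 to 18.4), and Tet3 with 9 (4.12 to 17.1) against 6 (2.2 to 13.1). Dnmt3a had 8 WT peaks (3.45 to 15.8) against 5 in KO (1.62 to 11.7). The intervals of WT and KO overlapped at each of these genes. Dnmt3l had 6 WT and 5 KO peaks and Tdg 5 and 4. Dnmt3b differed most, with 5 WT peaks (1.62 to 11.7) against 1 KO peak (0.0253 to 5.57), and there too the intervals overlapped. Such overlap is not a test of WT against KO, and none was made. A KO number of at most 1 was found at 5.47% of the 2031 genes with 5 WT peaks.

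**Figure D1:**
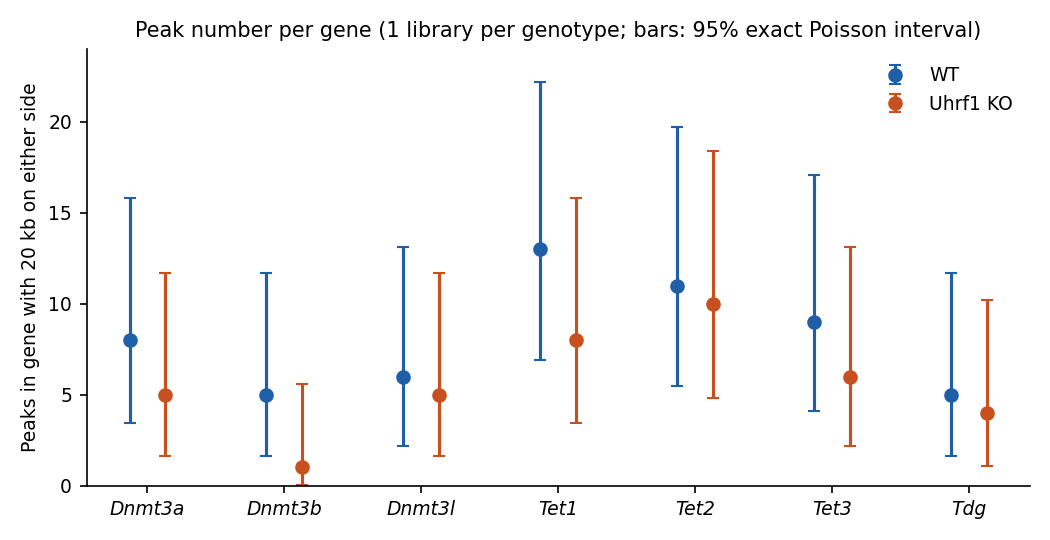
Number of listed peaks in each gene with 20 kb on either side (vertical axis) for the 7 genes (horizontal axis) in WT (blue) and Uhrf1 KO (orange). Points are the numbers from 1 library per genotype and bars are 95% exact Poisson intervals, which overlap between WT and KO at every gene, including Dnmt3b with 5 and 1.

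The windows differ in length, so levels between genes are compared per 100 kb of window. On this scale the WT density was highest at Dnmt3l (9.73 peaks per 100 kb) and Tet1 (9.66), followed by Tet2 (9.11), Tdg (8.2), Tet3 (7.54), Dnmt3b (6.39) and Dnmt3a (5.39). The intervals of the first and the last in this order, 3.57 to 21.2 and 2.32 to 10.6, overlapped. The genes were not tested against each other, so the order describes the WT list alone. In KO the order was led by Tet2 (8.28) and Dnmt3l (8.11) and ended with Dnmt3a (3.37) and Dnmt3b (1.28). Of all protein-coding genes, 59.2% had a lower WT density than Dnmt3b and 22% a lower KO density. For Tet2 these shares were 72.8% and 77.3%, so the place of Tet2 among all genes was close to the same in both lists.

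**Figure D2:**
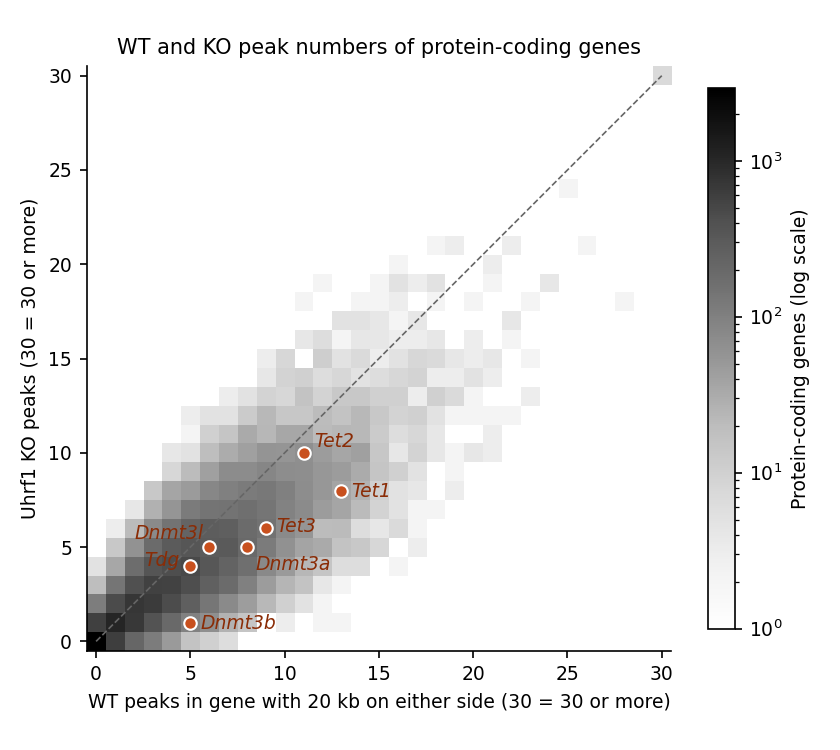
Peak numbers of protein-coding genes in their windows of the gene with 20 kb on either side, WT on the horizontal and Uhrf1 KO on the vertical axis, with the number of genes at each combination in grey (log scale) and the 7 genes in orange. With these windows all 7 lie below the dashed line of equal numbers, and Dnmt3b (5 WT, 1 KO) lies lowest.

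Each of the 7 genes had a peak within 2 kb of an annotated start in both lists. Over all protein-coding genes this was so for 63.6% in WT, 58.7% in KO and 57% in both. For Tet1 the only GENCODE start with peaks in both lists was that of a non-coding transcript in an intron, at 62328052. At the main start, defined as that of the transcript with the longest coding sequence, 5 of 7 genes had a peak in each list, against 60.6% of genes in WT and 55.5% in KO. Dnmt3l was among the 5 through peaks 1199 bp away in WT and 1270 bp away in KO, which lay at the Aire start. Within 1 kb of the main start, 4 genes had a peak in each list, without Dnmt3l. Tet1 and Tet2 had no peak at their main start in either list. At Tet1 the main start was the more upstream of a tied pair with a coding sequence of 6117 bp. The other start of this pair, at 62342762, had a KO peak alone within 2 kb. At Tet2 the coding sequence was 5757 bp from the main start, against 5736 bp from the start at 133207354, where both lists had peaks. Many of the other GENCODE starts belong to partial transcript models, so RefSeq starts were placed on mm9 as well, a choice made after seeing the data. All 11 RefSeq promoter sequences of the 7 genes matched mm9 exactly, and by these starts all 7 genes had a peak within 2 kb in both lists. They held 22 WT peaks, of which 7 were unpartnered, and 16 KO peaks, of which 2 were unpartnered. Over the whole lists 32.1% of WT and 24.6% of KO peaks were unpartnered, and the share among start peaks of all genes was not computed. Some of the peaks counted here, in the Dnmt3l window, lay at the Aire start.

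**Figure D3:**
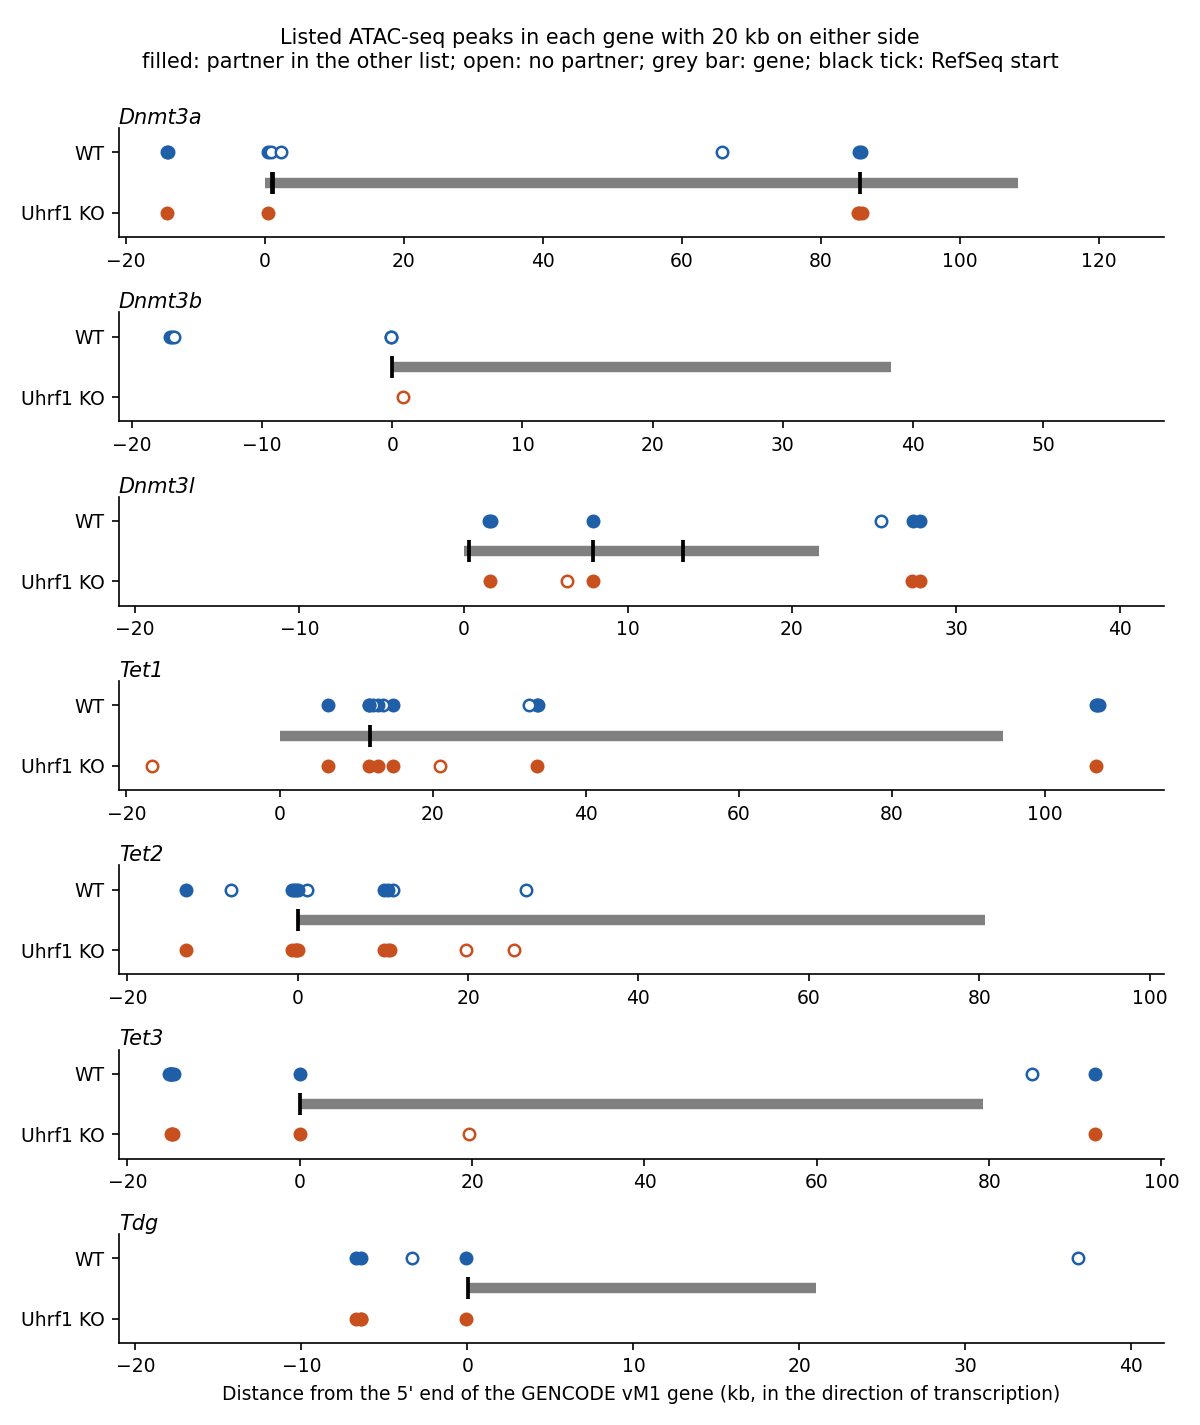
Listed peaks along the 7 genes, as distance in kb from the 5′ end of the GENCODE vM1 gene in the direction of transcription, with WT above and Uhrf1 KO below the gene (grey bar; black ticks are RefSeq starts). Filled circles have a partner in the other list and open circles have none. At Dnmt3b all 6 circles are open, while Tet2, Tet3 and Tdg show filled circles at the start in both rows.

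Dnmt3b, a de novo enzyme of early embryonic cells, was the gene among the 7 at which the lists differed most. It lies on the plus strand of chromosome 2 of mm9 from 153475186 to 153513466 (ENSMUSG00000027478.9). No WT peak in its window had a KO partner and the single KO peak had no WT partner. Among genes with peaks of both lists in their window, 2.66% of 17729 had no shared WT peak, and among genes with 5 WT peaks the share was 1.48%. At the Dnmt3b start WT had peaks from 153475013 and from 153475064, with the closer one centred 71 bp upstream of the RefSeq start. The KO peak, from 153475951, was centred 816 bp downstream of it, in the first part of the gene and 786 bp from the nearest WT peak. It overlaps an exon of 7530422B04Rik, a transcript antisense to Dnmt3b, and its sequence is not shown. The other 3 WT peaks, from 153458103, 153458237 and 153458341, lay 66 to 304 bp inside Commd7, the neighbouring gene, from its start, so only 2 WT peaks were closest to the start of Dnmt3b.

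The 1-kb sequence around the Dnmt3b start had a GC content of 70.5% and an observed to expected CpG ratio of 0.828. Of the 8761 genes whose main start was this CpG-rich, with at least 55% GC and a ratio of at least 0.6, 97% had a WT peak and 90.1% a KO peak within 2 kb. Of the 13606 other genes, 37.1% and 33.1% did. Dnmt3b had a peak within this distance in both lists.

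Dnmt3a lies on the plus strand of chromosome 12 from 3806007 to 3914443 (ENSMUSG00000020661.9). All 5 of its KO peaks were shared, and 3 of its 8 WT peaks were not. At the upstream start WT had a peak from 3806379 and KO one from 3806357, with 22 bp between their centres. The 1-kb sequence around the main start, a little downstream, had a GC content of 80.9%, and there a peak from 3806918 was listed in WT alone, as was one in the intron from 3808276. The nearest peak centre to the RefSeq start at 3806980 was thus 12 bp away in WT and 573 bp away in KO. The internal start at 3891728, which gives a coding sequence of 2067 bp against 2724 bp from the main start, had WT peaks from 3891533 and 3891746 and KO peaks from 3891340, 3891477 and 3891852. The ESC promoter of Dnmt3a was therefore marked in both lists. The third unpartnered WT peak, from 3871793, lay in an intron. A shared site lay 14088 bp upstream of the gene in KO, from 3791869, and was covered by 2 overlapping WT peaks. The nearest coding start to it was that of Dtnb, at 12371 bp. The 9 other GENCODE start regions of Dnmt3a had no peak within 2 kb in either list.

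Dnmt3l lies on the plus strand of chromosome 10 from 77504692 to 77526367 (ENSMUSG00000000730.7). Its internal start at 77512587 had a WT peak centred 10 bp and a KO peak centred 37 bp upstream. Both hold the E-box CACGTG, visible in the stretch printed above. A further KO peak from 77510959, 1578 bp upstream of that start, had no WT partner. The peaks closest to the upstream start, at a distance of 1199 bp in WT and 1270 bp in KO, lay at the start of Aire, the gene of the thymic autoimmune regulator. A further shared WT peak, from 77506313 and 1331 bp from the upstream start, also lay at the Aire start. The remaining peaks lay downstream, at Icosl, where 2 sites were shared and a WT peak from 77530100, 1955 bp upstream of the Icosl start, was unpartnered. The CpG ratio around both Dnmt3l starts was low, at 0.195 and 0.287, against 0.98 at the main Dnmt3a start.

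Tet1 lies on the minus strand of chromosome 10 from 62267318 to 62361866 (ENSMUSG00000047146.8). The main GENCODE vM1 start, at 62361866, had no peak in either list. The RefSeq start at 62350072, 11.8 kb inside that model, had WT peaks from 62350114 and 62350186 and a KO peak from 62350118. The centres closest to the RefSeq start lay 92 bp upstream in WT and 96 bp upstream in KO. Within 2 kb of it, 3 further WT peaks were listed, of which 62349660 and 62348276 were unpartnered and 62348973 was listed at the identical position in KO. The start of a non-coding GENCODE transcript in an intron, at 62328052, had WT peaks from 62328005 and 62328134 and a KO peak from 62328133. The WT peak from 62329228, also intronic, was unpartnered. KO peaks without a WT partner were listed from 62340829 and from 62378522. The first lay in an intron, 1883 bp downstream of the coding start at 62342762, which had no WT peak within 2 kb. The second lay upstream of the gene, closer to the start of Slc25a16 (4809 bp) than to that of Tet1 (16706 bp). The other peaks were shared apart from 1, a WT peak from 62254712 at the start of Ccar1, where 2 further WT peaks and 1 KO peak were listed. Within 2 kb of the RefSeq start thus lay 5 of the 13 WT peaks and 2 of the 8 KO peaks, and the unpartnered WT peaks of the gene lay within a few kb of shared ones.

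Tet2 lies on the minus strand of chromosome 3 from 133126643 to 133207354 (ENSMUSG00000040943.7). The GENCODE vM1 model with the longest coding sequence begins at 133151635, where neither list had a peak. The RefSeq start at 133207354, which is also the 5′ end of the GENCODE gene, had 4 peaks in each list within 1 kb, which spanned 723 bp in WT and 750 bp in KO. WT peaks began at 133207294, 133207483, 133207782 and 133207916, and KO peaks at 133207268, 133207465, 133207528 and 133207917. The 31 bp at the centre of the KO peak from 133207528 occur at 2 places in the genome. The centres of all other member peaks were unique. An intronic site 10.1 to 10.6 kb downstream had 2 shared peaks in each list, and a site 13.1 kb upstream had 1 in each, at positions 2 bp apart. Unpartnered peaks of Tet2 were listed in both directions, with 4 in WT (from 133180516, 133196083, 133206166 and 133215090) and 3 in KO (from 133181912, 133187489 and 133196418). Of the 7 genes, Tet2 had the most KO-only peaks and the KO number closest to the WT number in proportion.

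Tet3 lies on the minus strand of chromosome 6 from 83312367 to 83391672 (ENSMUSG00000034832.8). Its start had 1 peak in each list, from 83391585 in WT and from 83391647 in KO, which overlapped. A CpG-rich group of peaks lay 14564 to 15164 bp upstream, with Tet3 as the nearest coding gene. WT had 6 peaks there over 701 bp and KO 3 peaks over 408 bp. Merging neighbours within 100 bp left 2 WT regions and 1 KO region. Outside this group Tet3 had 3 peaks in each list, so the difference between 9 and 6 lay within it. The E-box CACGTG was found in the overlapping WT peak from 83406580 and KO peak from 83406593, which hold the same match, and at another position in the WT peak from 83406510. Unpartnered peaks were 1 WT peak from 83306663, downstream of the gene, and 1 KO peak from 83371957, in an intron 19.7 kb from the start. The shared peak at the far end of the window belonged to the start of Bola3.

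Tdg lies on the plus strand of chromosome 10 from 82092573 to 82113544 (ENSMUSG00000034674.11). At its start the WT peak from 82092457 and the KO peak from 82092454 differed by 3 bp. The window held no peak inside the gene in either list. Shared peaks at the start of 1190007I07Rik, the upstream neighbour, made up the rest of the KO peaks. Unpartnered WT peaks were listed from 82089180, between the genes, and from 82129282, closest to Glt8d2. The Tdg start was thus marked alike in position, and the difference between 5 and 4 peaks lay outside the gene.

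Of the member peaks, 20 of 57 in WT were unpartnered (35.1%, 95% exact binomial interval 22.9 to 48.9) and 8 of 39 in KO (20.5%, 9.3 to 36.5). The shares over whole lists, 32.1% and 24.6%, lay within these intervals. Of the Dnmt3 peaks, 9 of 19 in WT were unpartnered (47.4%, 24.4 to 71.1), of which 5 were those of Dnmt3b, and 2 of 11 in KO (18.2%). Of the Tet peaks, 9 of 33 in WT (27.3%, 13.3 to 45.5) and 6 of 24 in KO (25%) were. Both groups' intervals held the share of the whole list. In WT 31 of the member peaks lay outside the genes, 23 in introns and 3 in exons, and in KO 18, 20 and 1. The start of the member gene was the nearest coding start for 38 WT and 29 KO peaks, so the remainder lay closer to the promoter of a neighbour.

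The number in a peak's name gave a further description of the unpartnered peaks. Within a chromosome, peaks sorted by this number fall into blocks in which positions ascend, and the blocks grow towards the highest numbers, where the last 3 hold 24.6% of WT and 29.5% of KO peaks. What the number ranks is not stated, and this reading of its order was made after seeing the data. Peaks of the last 3 blocks were unpartnered in 61.5% of cases in WT and 47.9% in KO, against 22.4% and 14.9% of the other peaks. Of the 20 unpartnered WT member peaks, 13 lay in the last 3 blocks, as did 4 of the 8 unpartnered KO peaks. Among all unpartnered peaks of the autosomes and X, 10875 lay in these blocks and 12156 in the others in WT. In KO these numbers were 8691 and 6456. The median rank of the unpartnered member peaks, in percent of the peaks on the chromosome, was 77.8 in WT and 71.9 in KO. For shared member peaks it was 26.6 and 43.2. At Dnmt3b both WT start peaks, at 98.1 and 88.1, and the KO peak, at 98.1, lay in the last 2 blocks. The start peaks of Dnmt3b thus stood where peaks were unpartnered in most cases throughout the WT list. None of the 15 WT and 6 KO member peaks more than 20 blocks from the end was unpartnered, where 2% of WT and 1.67% of KO peaks were in all.

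**Figure D4:**
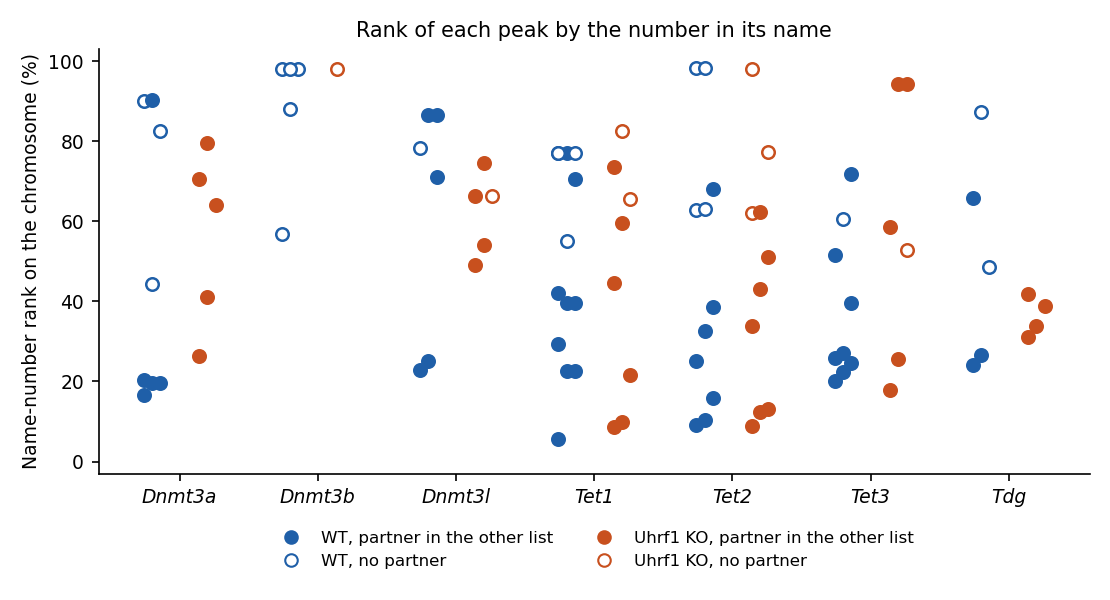
Rank of each member peak by the number in its name, in percent of the peaks on its chromosome (vertical axis), by gene and list (WT blue, Uhrf1 KO orange; points are spread sideways only for legibility). Open circles, the peaks without a partner in the other list, have a median rank of 77.8 in WT and 71.9 in KO, and all peaks of Dnmt3b are open.

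Shared sites could be set side by side by this rank where a WT and a KO peak were each other's nearest. The 7 windows held 28 such pairs, none of them at Dnmt3b, with a median of 20 bp between centres against 13 bp over all 39696 pairs. The KO rank was above the WT rank, that is later in its list, in 19 of 28, against 57.7% of all pairs. It was more than 25 points above in 5 pairs, against 16.6% of all, and more than 25 points below in 1, against 10.6%. The start of Tet3 (22.3 in WT, 25.6 in KO) and the upstream start of Dnmt3a (19.6, 26.3) had 1 pair each. The Tet1 RefSeq start had a pair at 22.7 and 21.6 and another, 1049 bp downstream, at 42 and 59.5. The Tet2 start had 3 pairs, at 9.25 and 12.5, at 15.8 and 13.1, and at 38.5 and 62.3, the last being the stretch printed above. The internal Dnmt3a start had a pair at 20.4 and 41 and another, closer to the start, at 90.2 and 79.6. The Tdg start stood at 24.1 and 38.9. Each of these starts thus had a pair that ranked below 50 in both lists. The internal Dnmt3l start, at 25.2 and 66.4, did not. The peaks at the Dnmt3b start ranked at 88.1 or above. They had no partner, and unpartnered member peaks had the higher median rank in both lists, so they are not compared here with like peaks.

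The 5 pairs with a KO rank more than 25 points above the WT rank were spread over 4 genes. They made up 17.9% of the 28 pairs, near the share of 16.6% over all pairs. The internal Dnmt3l start stood at 25.2 in WT and 66.4 in KO, a shift exceeded by 6.38% of all pairs. The site upstream of Dnmt3a stood at 16.6 and 70.7 (exceeded by 2.38%). In the Tet3 upstream group, the pair of the WT peak from 83406580 stood at 25.8 and 94.4 (exceeded by 0.501%). The other pairs of that group shifted less, at 71.9 and 94.4 (exceeded by 18.9%) and at 51.7 and 58.7 (exceeded by 39.6%). The site upstream of Tet2 stood at 10.3 and 43.2 (exceeded by 10.8%). The site nearest the Icosl start, downstream of Dnmt3l, stood at 22.8 and 54.2 (exceeded by 11.7%). Shifts in the other direction were found at a further Icosl site, at 86.6 and 49.2, and, below 25 points, in 8 other pairs. Of these, a site at the 1190007I07Rik start in the Tdg window stood at 65.8 and 41.9. The intronic Tet1 start stood at 29.3 in WT and 9.97 in KO and the intronic Tet2 site at 25 and 8.81. The ranks come from lists of different length and follow position within a block, and with 1 library per genotype these differences have no replicate error. They describe the order of the lists and were not read as a change in accessibility.

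**Figure D5:**
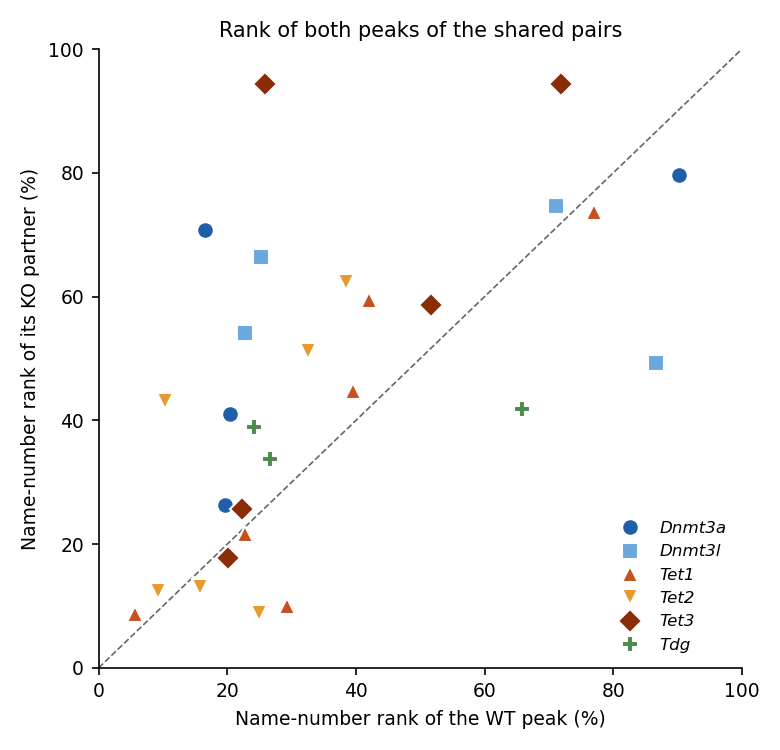
Name-number rank, in percent of the peaks on the chromosome, of the WT peak (horizontal axis) and the KO peak (vertical axis) of the 28 shared pairs, marked by gene. On the dashed line the ranks are equal. 19 pairs lie above it, with a pair of the Tet3 upstream group (25.8, 94.4) farthest. The pairs closest to the starts of Tet3 (22.3, 25.6) and Tet1 (22.7, 21.6) lie close to it.

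The members' sequence was rich in GC, as is that of most listed peaks. The median GC content was 64.4% in WT and 65.3% in KO, against 61.4% and 58.4% over all peaks, and the median CpG number per peak was 7 and 6 against 5 and 3. Shared member peaks had a median GC content of 66.3% in WT and 68.3% in KO. Unpartnered ones had 60.4% in WT and 52% in KO, close to all unpartnered peaks of these lists (60.4% and 51.5%). Letters of 6 motifs were searched on both strands. The Oct4 octamer ATGCAAAT, the Esrrb motif TCAAGGTCA and the CREB motif TGACGTCA were in no member peak, where 0.747%, 0.118% and 0.662% of all WT peaks hold them. The NRF1 motif GCGCATGC was in 1 WT peak, at the Ccar1 start. The E-box CACGTG was in 6 WT and 5 KO peaks, where 2.74% and 2.51% of all peaks hold it, at the internal Dnmt3l start, near the Tet1 RefSeq start, in the Tet3 upstream group and in the Tdg window at 1190007I07Rik and Glt8d2. Overlapping peaks can share a match. The GC box GGGCGG was in 22 WT and 12 KO peaks, against 26% and 23.3% of all. A match describes letters, not a bound factor.

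Of 40 other genes of DNA methylation, chosen for their roles, 34 had start peaks in both lists, against 57% of all protein-coding genes. Within 1 kb of a start the number was 32. The list held 291 WT and 234 KO peaks, a ratio of 0.804, with more WT peaks at 25 genes, more KO peaks at 8 and equal numbers at 7. Of all genes with a peak in their window, 55.9% had more WT and 24.1% more KO peaks. The maintenance genes of the list, among them Dnmt1 and Uhrf1, held 42 peaks in each list. Tet partners held 67 and 49 (0.731), regulators of the Dnmt3 genes or proteins 106 and 82 (0.774), and repair genes 76 and 61 (0.803). Start peaks were listed in WT alone at Prdm14, a repressor of Dnmt3 genes in ESCs, which had 3 in WT and none in KO among 10 and 6 peaks in its window. WT alone was found at 6.64% and KO alone at 1.73% of all genes. Cdca7, which partners the remodeller Hells in maintenance, had a start peak in KO alone, with 3 KO peaks and no WT peak in its window. Smug1 and Neil1, glycosylases, and Ogt, which binds Tet proteins, had start peaks in neither list.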

How the data were processed

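Open chromatin of WT and Uhrf1 KO ESCs was analysed from the peak lists the authors deposited, 1 library per genotype. Per the submitters' processing notes, Bowtie2 2.1.0, HOMER 4.9.1 and mm9 were used. The authors mapped reads with 1 reported alignment per read and kept short fragments only. The peak caller's settings, any shift of read ends to the Tn5 site and excluded regions are not given in the sources used here. The deposited values are positions and a score, which is 1 for every peak, so the lists give no read counts and the depth behind a peak is unknown.

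From the lists, positions were converted to 1-based and compared with Python 3.11.15, numpy 2.4.6 and scipy 1.17.1. Figures were drawn with matplotlib 3.10.9. Genes and starts were those of GENCODE vM1, on NCBIM37, which is mm9, and starts of a gene within 500 bp of each other were joined. RefSeq promoter sequences (GRCm38.p6) were placed on mm9 by exact match within 100 kb of the gene, and 11 of 11 matched. A pair of peaks with a gap of at most 100 bp was shared, as in the study's comparison of factor binding. Intervals are 95% exact Poisson or exact binomial (Clopper-Pearson) intervals. No test between genotypes was made. The routines were tested on simulated peaks. All 7 genes, every peak within 2 kb of a start that had peaks and every unpartnered peak of the 7 were named, and genes of the wider list only where a start peak was listed in 1 genotype alone or in neither. A result on 1 gene of that list is not reported here. The genes and lists were chosen with earlier results of these data known. Alternatives were other flanks, partner and start distances, merged peaks and the lower 50% of name numbers. The RefSeq starts, the pairs and the setting without the last 3 blocks were added after seeing the data.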

Additional observations from a re-analysis of the deposited data

How the results depend on the processing

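Of 152 values recomputed under alternatives, 104 stayed within a set limit and 48 moved further. The limit was the counting interval or, for counts, 1.5 times. For median GC content it was the quartiles of the member peaks. The order of WT over KO numbers turned at Dnmt3b within the gene body (0 and 1) and at Dnmt3l both with only peaks closest to its own start (1 and 2) and without the last 3 blocks (3 and 4). Counting the gene bodies alone left 26 WT and 21 KO peaks over the 7 genes. Asking for a partner over at least 50% of both peaks raised the unpartnered share to 63.2% in WT and 46.2% in KO. In the lower 50% of name numbers it was 6.9% in WT and 0 in KO (0 of 18 peaks, 95% exact binomial interval up to 18.5%), with main-start peaks at 3 genes in each list. Shares over all peaks at these settings are not given here, so these values cannot be set against the whole lists. Without the last 3 blocks, a setting added after seeing the data, the WT share was 17.5% (7 of 40), against 22.4% of all WT peaks outside these blocks. Within 500 bp of the main start, 4 genes had a WT peak and 2 a KO peak. Within 500 bp of any start, all 7 genes had a WT peak and 6 a KO peak, without Dnmt3b. In the lower 50% of name numbers, 6 genes had a WT peak at a start, without Dnmt3b. In KO, 5 genes had such a peak, without Dnmt3b and Dnmt3l. At Dnmt3b the WT number was 2 with 10 kb flanks, with merged peaks or with only peaks closest to its own start, and 1 without the last 3 blocks, where KO had 0. With 50 kb flanks it was 6, and 3 in KO. WT had more peaks than KO at 5 genes with 10 kb flanks and at 6 with 50 kb flanks or merged peaks. In 300 bp around peak centres, E-box matches numbered 13 in WT and 11 in KO, where 7.16% and 7.04% of all peaks have a match at this width. No paired analysis was possible because a genotype is represented by a single library, and no replicate could be left out. The lists hold no read counts, so depth limits which peaks were called in a way that cannot be measured here.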
